A study of Mus musculus with 2 samples.

Results

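The CXC chemokine ligands were examined in eosinophils of the naive mouse colon. The family was taken as 10 genes named by symbol (Cxcl1, Cxcl2, Cxcl3, Cxcl5, Cxcl9, Cxcl10, Cxcl12, Cxcl13, Cxcl16 and Pf4), of 23456 genes in the deposited table. For each gene the transcript row with the most reads was kept, and Cxcl12 was the member with more than 1 row. The samples form 1 group: 2 samples of eosinophils, sorted by flow cytometry after enzymatic digestion of colons from naive wild-type C57BL6 mice. RNA was measured with CEL-Seq, in which sequenced tags come from the 3′ end of polyadenylated RNA, and each sample was split into 3 technical libraries made with separate primer pools. The age and number of mice, any pooling of animals and the gate of the sort are not given here.

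CXC chemokines are small secreted proteins in which 1 residue separates the first pair of conserved cysteines. Those with a glutamate-leucine-arginine (ELR) motif before that pair, here Cxcl1, Cxcl2, Cxcl3 and Cxcl5, act on Cxcr2 and draw neutrophils. Cxcl9 and Cxcl10 are induced by interferons and act on Cxcr3 of T and natural killer cells. Cxcl12 acts on Cxcr4, Cxcl13 on Cxcr5 of B cells and Cxcl16 on Cxcr6, and Pf4 (also named Cxcl4) is stored in platelet granules. In the gut wall these genes are known from epithelium, stroma and myeloid cells, and most of the inducible ones follow NF-kB or interferon signals.

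Each transcript has 1 averaged read total and 1 averaged RPKM, its reads divided by transcript length in kb and by the depth in units of 1000000 reads, so no value per sample, SD or test between samples is given. Each RPKM below is followed by an exact 95% Poisson interval of the reads summed over the 6 libraries, which covers counting error only. The sum was 7692387 reads on genes, and the 6 library depths recovered from single-read transcripts ran between 1892486 and 4752357 reads. In bulk RNA, fewer cells of a type and less RNA per cell cannot be told apart. As tags come from the 3′ end, reads are not expected to grow with transcript length. RPKM therefore raises short transcripts relative to long ones, and levels of different genes are best read beside reads or RPM.

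Defining eosinophil genes were present: the eotaxin receptor Ccr3 had an RPKM of 155, the lectin Siglecf 77.9, the major basic protein gene Prg2 74.3 and the interleukin-5 receptor chain Il5ra 18.6. The peroxidase gene Epx was low at 0.265. Markers of other cells were present as well. The 7 epithelial genes summed to an RPKM of 217, the 7 fibroblast genes to 137 and the 10 macrophage and monocyte genes to 157.

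The sequences printed here are parts of the promoter windows searched below, from the genes with the highest RPKM in the family. All are RefSeq sequence of build GRCm38.p6 (mm10), written 5′ to 3′ on the strand of the gene. In the first 3, capitals mark the 10-base NF-kB site GGGAATTTCC and the TATA-like word ATAAAAGG. In Cxcl10, capitals mark the match GAAAGTGAAA to the interferon-response element core, a pair of matches to the NF-kB consensus and the AP-1 word TGANTCA.
Cxcl2, plus strand, chr5:90903751-90903870: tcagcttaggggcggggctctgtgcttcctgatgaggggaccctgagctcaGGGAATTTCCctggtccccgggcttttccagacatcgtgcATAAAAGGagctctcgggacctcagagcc
Cxcl1, plus strand, chr5:90891125-90891244: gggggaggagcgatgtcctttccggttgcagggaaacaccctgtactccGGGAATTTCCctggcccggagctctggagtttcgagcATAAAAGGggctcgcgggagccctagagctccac
Cxcl3, plus strand, chr5:90785981-90786100: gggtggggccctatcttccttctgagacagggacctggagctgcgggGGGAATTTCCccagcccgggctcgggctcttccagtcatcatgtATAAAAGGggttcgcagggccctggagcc
Cxcl10, minus strand, chr5:92348950-92349109: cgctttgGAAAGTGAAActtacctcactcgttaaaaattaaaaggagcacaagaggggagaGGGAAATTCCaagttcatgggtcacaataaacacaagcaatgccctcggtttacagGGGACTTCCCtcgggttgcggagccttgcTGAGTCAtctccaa

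The first question was how the family's level is spread over its members. Cxcl2 held nearly all of it, with 96.7% (96.6 to 96.9) of the summed RPKM of the 10 genes, from 88358 of their 91328 reads. The 4 ELR genes together held 98.0% (97.9 to 98.1). Of the 10 genes, 9 reached an RPKM of 1, against 31.0% of all genes, and 4 reached 5, against 14.2%. All 10 were above 0, against 69.1% of all genes, and all 10 reached 1 RPM, against 50.9%. The median of the members was an RPKM of 3.99, against 0.186 over all 23456 genes. The 5 other CXC ligand genes of the table had a median RPKM of 0.112, and counted with them 11 of 15 genes were at an RPKM of 1 or above. The 10 genes were picked with earlier results of these data known, so these counts are a description with no test.

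**Figure D1:**
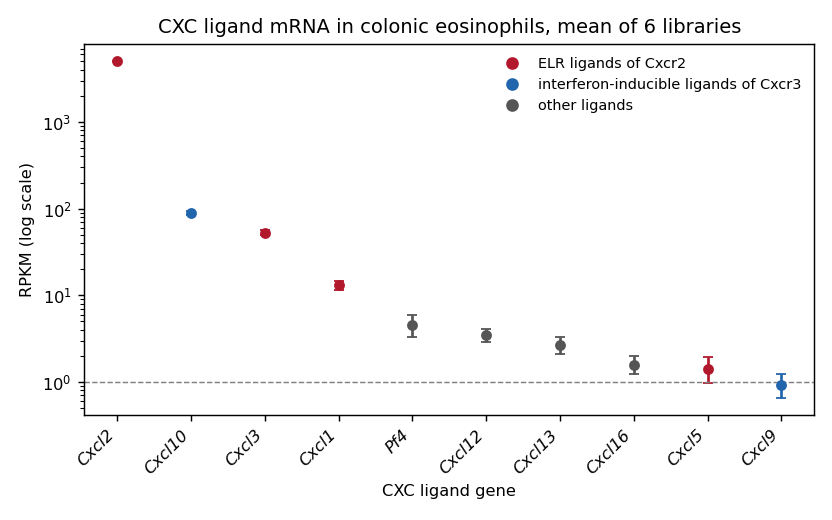
RPKM (log scale) of the 10 CXC ligand genes, 1 point per gene as the authors' mean over 6 libraries, with exact 95% Poisson intervals as bars and a dashed line at an RPKM of 1. Cxcl2 stands at 5035, followed by Cxcl10 at 88.9, and Cxcl9 at 0.915 is the member below 1.

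Among the ELR ligands the levels fell into separate ranges. Cxcl2, the neutrophil attractant also called MIP-2, had an RPKM of 5035 (5002 to 5069) and 11486 reads per 1000000 reads on genes (RPM). It ranked 5 of all genes by RPKM and 7 by RPM. Cxcl3, also called Dcip1, followed at an RPKM of 52.8 (49.3 to 56.4) from 868 reads. Cxcl1, known as KC and the closest neighbour of Cxcl2 on the chromosome, had an RPKM of 13.1 (11.5 to 14.8) from 247 reads. Cxcl5, a neutrophil attractant known from epithelial cells, had 1.40 (0.984 to 1.93) from 37 reads.

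On RPKM, Cxcl2 was 386-fold (340 to 439) above Cxcl1 and 3603-fold (2614 to 5117) above Cxcl5. Cxcl3 was 4.04-fold (3.51 to 4.68) above Cxcl1. By reads, without division by length, these ratios were 358 (316 to 407), 2388 (1732 to 3392) and 3.51 (3.05 to 4.06) in that order. These intervals are exact conditional intervals of the read ratio and exclude 1, so the differences were larger than counting error; the spread between samples cannot be given. The genes are related in sequence, but no 35-base word in the last 500 bases of any of the 10 members occurred in an annotated transcript of another gene. The longest run shared there by Cxcl2 and Cxcl1 was 14 bases, and by Cxcl2 and Cxcl3 16 bases.

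The interferon-inducible ligands were uneven in the same way. Cxcl10, also called IP-10, was the second member at an RPKM of 88.9 (84.4 to 93.6) from 1466 reads. Cxcl9, also called Mig, had 0.915 (0.657 to 1.24) from 41 reads. Cxcl11, another Cxcr3 ligand outside the 10 genes, had 0.0885 (0.0241 to 0.227) from 4 reads. Cxcl10 was 97.2-fold (71.3 to 136) above Cxcl9 on RPKM and 35.8-fold (26.2 to 50.0) by reads, without division by length. On the opposite strand, Art3 spans all of Cxcl10 and Cxcl11, and it had an RPKM of 0.517 from 15 reads. Whether counting used strand is not stated. The overlap is of whole spans, with exons not compared, and the 3′ end of Art3, at 92414627, lies outside both genes. The part of Art3 reads in either value was not tested.

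The ligands of lymphoid homing and tissue retention stood far below Cxcl2 and Cxcl10, though above most genes. Their RPKM was above that of 82.6% of all genes for Cxcl12, 79.8% for Cxcl13 and 74.3% for Cxcl16. Cxcl12, which keeps Cxcr4-bearing cells in bone marrow and tissue, had an RPKM of 3.46 (2.87 to 4.13) from 122 reads. Cxcl13, which draws B cells into follicles, had 2.65 (2.08 to 3.34) from 73 reads. With transcript lengths allowed to be off by 2%, 78.0 to 94.8% of the Cxcl13 reads lay in the 2 deepest of the 6 libraries. Those libraries held 51.8% of the summed depth, and the bounds leave out counting error. Cxcl16, a membrane-bound ligand released by shedding, had 1.58 (1.22 to 2.00) from 68 reads, and 363 bases of its locus overlap Zmynd15 on the other strand, at an RPKM of 0.887.

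Cxcl12 was the gene with several transcript rows, 3 in all, on the plus strand of chromosome 6. All start at 117168535, and they differ at the 3′ end, where CEL-Seq reads. The row that ends first, NM_021704 at 117175069, held 122 of 164 reads, or 74.4%. NM_013655, which ends 6299 bases further on, held 35 reads, and NM_001012477, with the same end, held 7. On RPKM the rows stood at 3.46, 0.465 and 0.0761. How reads were divided between rows that share sequence is not given, and the pair with 1 end cannot be separated by position alone.

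Pf4 had an RPKM of 4.52 (3.33 to 5.99) from 48 reads. Its neighbour Ppbp, the other platelet granule chemokine and not among the 10 genes, had 7.52 (6.24 to 8.98) from 122 reads. Of the 7 platelet and megakaryocyte markers, which include Ppbp itself, 3 reached an RPKM of 1, against 31.0% of all genes. Those were Gp1bb at 99.5, Itga2b at 19.1 and Ppbp, while Gp1ba had 0.141. Gp9, Gp6 and Treml1 were listed at 0. The part of platelet RNA in the Pf4 value was not tested.

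In the order of RPKM, 9 pairs of neighbours were compared, and on RPKM 4 did not differ beyond counting error. These were Pf4 over Cxcl12 at 1.31-fold (0.915 to 1.84), Cxcl12 over Cxcl13 at 1.30 (0.967 to 1.77), Cxcl16 over Cxcl5 at 1.13 (0.745 to 1.73) and Cxcl5 over Cxcl9 at 1.53 (0.952 to 2.44). The first 4 places, Cxcl2, Cxcl10, Cxcl3 and Cxcl1, were the same by RPM. Below them the order depended on division by length, and most of these calls changed with it. With tags from the 3′ end, that division raises short transcripts such as Pf4, at 588 bases, relative to longer ones. By reads alone, Pf4 over Cxcl12 was 0.393 (0.276 to 0.554), so Pf4 was 5 in the order by RPKM and 8 by RPM. Cxcl12 over Cxcl13 was 1.67 by reads (1.24 to 2.27) and Cxcl16 over Cxcl5 1.84 (1.21 to 2.82), both beyond counting error. Cxcl5 over Cxcl9 at 0.902 by reads (0.563 to 1.44) was not. Cxcl13 over Cxcl16, which differed on RPKM at 1.68-fold (1.19 to 2.38), did not differ beyond counting error by reads, at 1.07 (0.761 to 1.52).

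**Figure D2:**
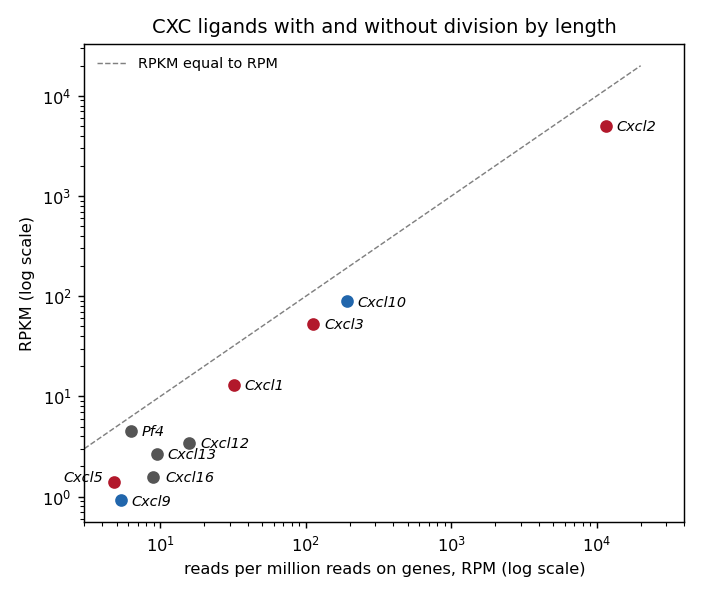
RPKM against RPM (both log scales) for the 10 CXC ligand genes, 1 point per gene as the authors' mean, red for ELR ligands, blue for Cxcl9 and Cxcl10 and grey for the others. The top 4 keep their order on both axes, while Pf4, at 4.52 RPKM and 6.24 RPM, lies above Cxcl12 on one axis and below it on the other.

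The next question was how the levels lie along chromosome 5, which holds 8 of the 10 genes (the others are Cxcl12 on chromosome 6 and Cxcl16 on chromosome 11). In mm10, 7 CXC genes lie in a row on the plus strand between 90759298 and 90905938, a stretch of 146.6 kb with no other gene of the table inside it. Their order is Cxcl5, Ppbp, Pf4, Cxcl3, Cxcl15, Cxcl1 and Cxcl2. Cxcl2, the last in the row, held 98.4% of their summed RPKM.

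Cxcl2 (NM_009140) spans 90903899 to 90905938, and its start is 10.784 kb from the end of Cxcl1 (NM_008176, 90891245 to 90893115). Cxcl15, listed in the table under its older name Il8, had an RPKM of 0.112 from 3 reads, although it lies between Cxcl3 and Cxcl1. Within 300 kb of the row, 9 other genes had a median RPKM of 0.0376. Of these, 1 reached an RPKM of 1, the growth factor gene Areg at 3.80. Mthfd2l, the gene after Cxcl2, had 0.0327 from 2 reads.

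Cxcl9, Cxcl10 and Cxcl11 form a second cluster on the minus strand between 92321331 and 92363277, 1415 kb beyond Cxcl2. The 13 other genes within 300 kb had a median RPKM of 0.133 and a highest value of 4.23, so Cxcl10 stood above all of them. Cxcl13 lies alone, 3594 kb further on, between 95956939 and 95961068. Of the 7 CXC genes of the first row, 6 reached an RPKM of 1, among them Cxcl3 and Cxcl1, whose RPKM was above that of 97.6% and 92.8% of all genes, while 1 of the 9 other genes around that row did so. In the second cluster 1 of 3 CXC genes reached it, and 5 of the 13 other genes. Over all genes 31.0% did so.

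**Figure D3:**
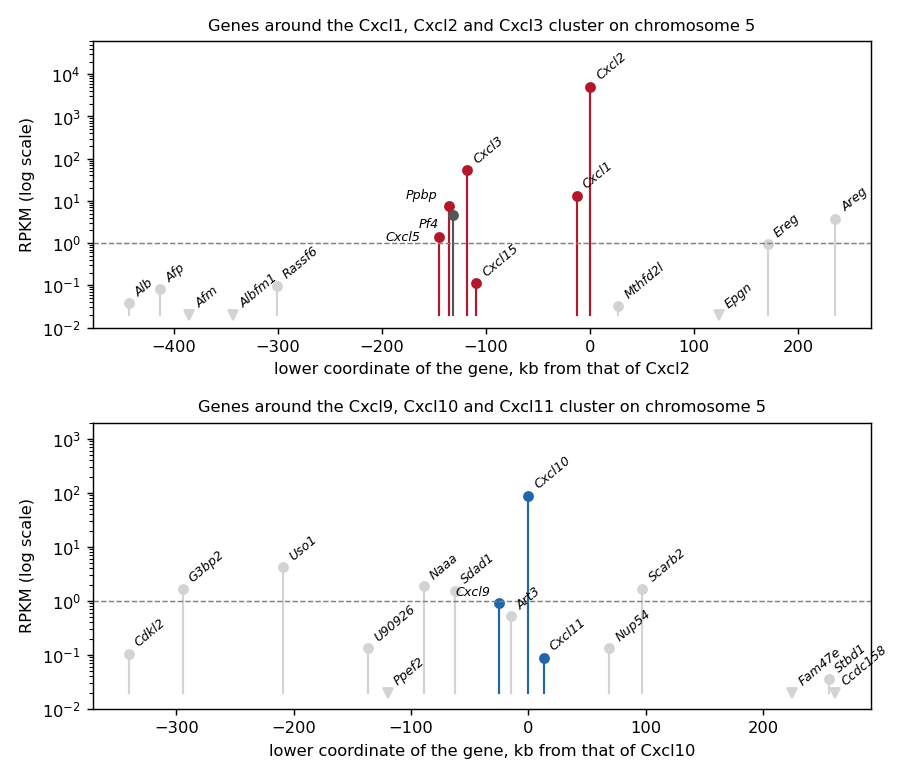
RPKM (log scale) of the genes around both CXC clusters of chromosome 5, by distance in kb from the lower coordinate of Cxcl2 (above) or Cxcl10 (below). Colour marks CXC genes and light grey other genes, the dashed line is an RPKM of 1, and triangles mark genes listed at 0. Cxcl2 and Cxcl10 stand far above every neighbour drawn.

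The promoters printed above were compared over windows of 250 bases before to 50 after each start, searching both strands. Of the 10 genes, 8 were matched in the RefSeq set of 32851 windows, and Cxcl5 and Cxcl16 were not. The site GGGAATTTCC was taken from the Cxcl2 window as its match to the NF-kB consensus, so its presence there was fixed in advance. The site was in 3 of the 8, those of Cxcl1, Cxcl2 and Cxcl3, and in 0.0883% of all windows. Its first base was at position -97 from the start of Cxcl2, -71 from that of Cxcl1 and -73 from that of Cxcl3. The word ATAAAAGG was in the same 3 windows, at positions -57, -34 and -29 in that order, and in 1.76% of all windows. So the gene at an RPKM of 5035 and the gene at 13.1 carried the same 10 letters.

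The NF-kB consensus, which GGGAATTTCC fits, was in 4 of the 8 windows and 4.51% of all. The fourth was Cxcl10, with matches at positions -159 and -103. The interferon-response element core was searched as GAAA..GAAA, where each dot is any base. This pattern was in 1 of the 8, as GAAAGTGAAA at position -213 of Cxcl10, and in 3.44% of all windows. The word TGANTCA was found in Cxcl10 at -74 and in Cxcl9 after the start at 32, and in 7.81% of all windows. The C/EBP word TTGCNNAA was in Pf4 and Cxcl13, and in 10.8% of all windows. A match is a description of letters and not of binding.

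Inducible chemokine mRNAs are known for AU-rich 3′ untranslated regions, at which decay factors bind. In GENCODE M21, Cxcl2 had 11 copies of ATTTA in 734 bases, or 14.99 per kb. A density that high was found for 0.499% of 19023 genes, whose median was 1.04 per kb. Cxcl1 had 7 copies (11.8 per kb), Cxcl3 5 (7.75 per kb) and Cxcl5 5 (4.50 per kb), and Pf4 had 1 copy in a region of 123 bases (8.13 per kb). The other 5 members ran from 1.22 per kb in Cxcl9 to 2.74 per kb in Cxcl10. The densest stretches of 30 bases are shown with ATTTA in capitals, and they hold 5, 4 and 2 copies, which can overlap.
Cxcl2, plus strand of chromosome 5: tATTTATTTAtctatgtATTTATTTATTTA
Cxcl1, plus strand of chromosome 5: gagggtcctATTTATTTAtgtATTTATTTA
Cxcl3, plus strand of chromosome 5: caagatggcatcttATTTAatgtttATTTA

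**Figure D4:**
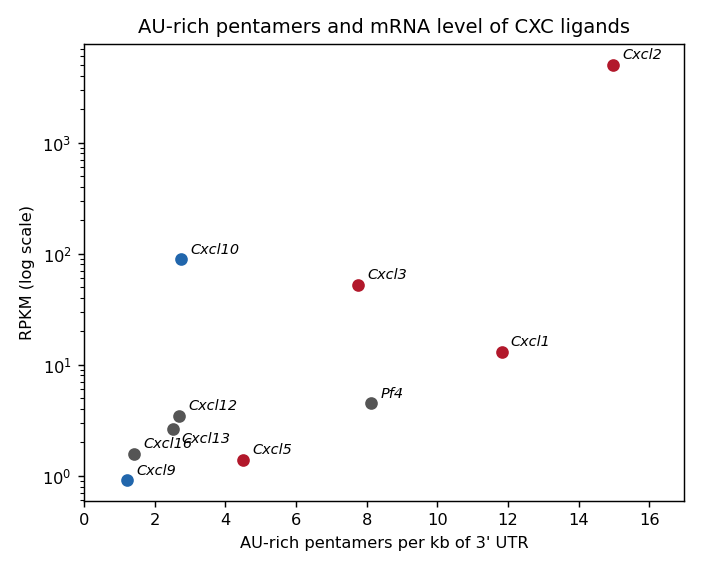
RPKM (log scale) of the 10 CXC ligand genes against AU-rich pentamers per kb of 3′ untranslated region, 1 point per gene, red for ELR ligands, blue for Cxcl9 and Cxcl10 and grey for the others. Cxcl2 has both the highest level and the highest density, 14.99 per kb, while Cxcl10 is second in level with 2.74 per kb.

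Genes that induce these ligands or control decay of their mRNA were all detected. All 12 had at least 1 RPKM, against 31.0% of all genes, and their median was 13.7. The NF-kB inhibitor Nfkbia, itself an NF-kB target, had 3373, the ATTTA-binding decay factor Zfp36 1471, Nfkbiz 121 and the ribonuclease Zc3h12a 106. The interferon-pathway factor Irf1, picked after seeing its value, had 12.8. The tissue was digested with enzymes before the sort, and the part of that step in the levels of Cxcl2 and Nfkbia was not tested, as no undigested sample was analysed here.

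Of the receptors for the family, 2 of 8 had at least 1 RPKM, a share near the 31.0% of all genes, and their median was 0.373, against 0.186 over all genes. Cxcr4, the receptor of Cxcl12, had 438, the decoy receptor Ackr1 3.64, Cxcr5 0.519 and Cxcr2, the receptor of the ELR ligands, 0.507 from 23 reads. Cxcr3, the receptor of Cxcl10, had 0.0239 from 1 read and was picked after seeing its value. Thus the highest ligand and the highest receptor, Cxcl2 and Cxcr4, are not a known pair.

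Among genes that process or hold the ligands, 6 of 11 reached an RPKM of 1, against 31.0% of all genes. Elane, a neutrophil protease that cleaves chemokines, was listed at 0. Srgn, the granule proteoglycan that binds chemokines, had 25417, the gelatinase Mmp9 23.5, the syndecan Sdc4 4.49 and Adam17, a shedding protease, 2.50. Adam10, which sheds Cxcl16, had 2.15 and was likewise picked after seeing its value. Of the growth factor genes beside the cluster, Areg reached an RPKM of 1, Ereg and Btc had 0.931 and 0.112, and Epgn was listed at 0.

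The 5 CXC ligand genes outside the family as defined had a median RPKM of 0.112, with 2 at 1 or more. These were Ppbp at 7.52 and Cxcl14, an ancestral chemokine of epithelium, at 5.14 (4.37 to 6.01). Cxcl17 was listed at 0, which allows up to 3 reads over the 6 libraries, or 0.390 RPM. The CC ligands, the related family with adjacent cysteines, had a median of 0.299. Of the 19, 8 reached an RPKM of 1, against 31.0% of all genes. They were led by Ccl6 at 4133, Ccl9 at 759.5, Ccl3 at 555 and Ccl4 at 122, and 6 were listed at 0, among them Ccl1, Ccl19 and Ccl20. The summed RPKM was 5205 for the 10 CXC genes and 5598 for the 19 CC genes. By reads, without division by length, Ccl6 alone had 106456, more than the 91328 of the 10 CXC genes together. Cxcl2, with 88358 reads, was thus above Ccl6 on RPKM and below it by reads.

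**Figure D5:**
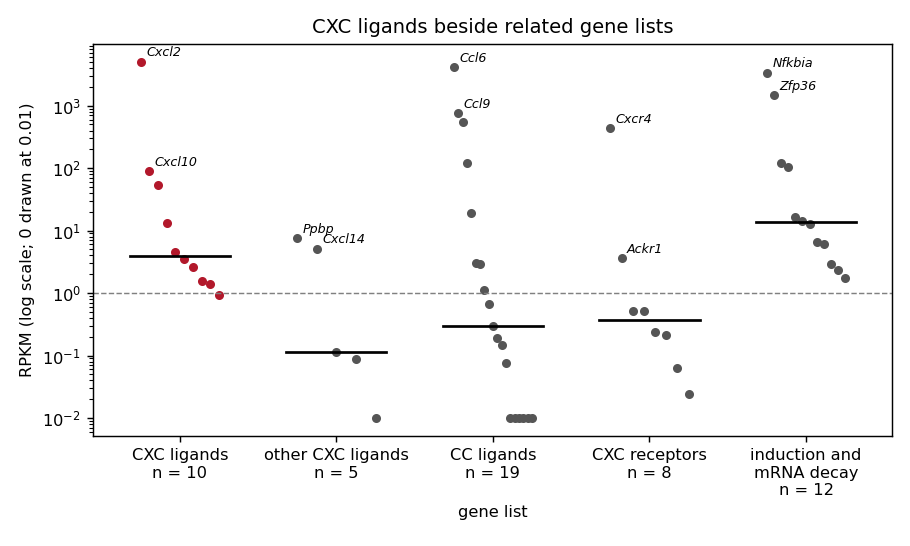
RPKM (log scale, genes at 0 drawn at 0.01) of the 10 CXC ligands and of 4 related lists, 1 point per gene as the authors' mean, black bars for list medians and a dashed line at an RPKM of 1. The CXC ligands have a median of 3.99, against 0.299 for the CC ligands and 0.373 for the CXC receptors.

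Markers of cells known to make the ligands are given beside them. Their counts at an RPKM of 1, here and in the next paragraph, stand against 31.0% of all genes. Macrophage and monocyte markers reached an RPKM of 1 for 8 of 10, led by Apoe at 54.3, Csf1r at 41.0, C1qb at 37.9 and C1qc at 10.7, with Mertk at 0. Fibroblast markers, of a known source of Cxcl12, did so for 5 of 7, with Col3a1 at 66.7, Col1a2 at 35.2, Dcn at 23.8 and Col1a1 at 8.95. All 7 epithelial markers did so, with Epcam at 89.3, Krt19 at 66.7, Lgals4 at 30.1 and Krt20 at 10.9. Endothelial markers did so for 1 of 5, with Pecam1 at 16.3, Cdh5 at 0.535, Vwf at 0.238 and Kdr at 0.122.

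Neutrophil markers reached an RPKM of 1 for 3 of 10, a share near the 31.0% of all genes. Retnlg had 11986, S100a9 23.9, S100a8 10.2 and Ltf 0.908, while Mpo and Elane were listed at 0. None of the 3 follicular dendritic cell markers, of a known source of Cxcl13, did so: Madcam1 had 0.128, Cr2 0.0702 and Fcer2a was listed at 0. B cell markers did so for 1 of 4, with Cd79b at 1.15, Cd79a at 0.297 and Ms4a1 at 0.0373. T cell markers did so for 3 of 5, with Cd4 at 1.56, Cd3e at 1.44, Cd3g at 1.06 and Cd8a at 0.169. Cxcl2, at 5035, was 56.4-fold above Epcam, the highest of the epithelial markers, on RPKM and 26.2-fold (25.3 to 27.2) by reads. It was below Retnlg of the neutrophil list, at 11986, and above the other genes of that list, the next being S100a9 at 23.9. On RPKM, Cxcl10 was level with Epcam within counting error, though it had 1466 reads against 3368. The other 8 members had a lower RPKM than Epcam. The part of these cells in the ligand values was not tested.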

How the data were processed

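Messenger RNA of sorted colonic eosinophils was measured with CEL-Seq in 2 samples of 1 group, with no contrast, so no differential test was made. STAR 2.4.2a, DESeq and mm10 are named in the submitters' processing notes; the annotation and the read counter are not given there. Per the file headers, the table deposited by the authors gives RPKM, beside a read total per transcript that is a mean, since 100% of totals times 6 are whole within 0.0001. Both columns are pooled over the libraries, and 0 columns belonged to other samples.

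Of 31295 rows, 30730 were named through RefSeq accessions, and 1 row per gene, that with the most reads, was kept. The first base is counted as 1 in all coordinates. Reads over the 6 libraries gave exact Poisson intervals, ratios of reads gave exact binomial intervals at 95%, and a count of 0 was given 3 reads. RPM is reads per 1000000 reads on genes. Library depths came from 1453 transcripts with 1 read in all and a GENCODE M21 length. Sequences came from RefSeq and GENCODE M21.

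The members and gene lists were chosen with earlier results of these data known. The text names all members, the 4 highest genes of each list and up to 3 listed at 0, and says where a gene was chosen after its value was seen. Epx and genes that neighbour or overlap a member were added outside that rule. Some genes that the rule takes are left out of the text. Alternatives were other detection levels, RPM, rescaled RPKM, other row choices and all 15 CXC ligands. Software was matplotlib 3.10.9, scipy 1.17.1, pandas 2.3.3 and numpy 2.4.6 under Python 3.11.15. On simulated data, Poisson intervals drawn from the 16204 detected genes covered 96.5% of true values and ratio intervals 95.5% of 2000 pairs.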

Additional observations from a re-analysis of the deposited data

How the results depend on the processing

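Of 18 alternatives, 13 left a value within its counting interval, or a count within 1.5 times. The number of CXC ligands detected was 9 of 10 at an RPKM of 1 and 4 at an RPKM of 5. The median of the members, 3.99 RPKM, was 12.7 as RPM and 16.8 on RPKM rescaled to a sum of 1000000, both of which are other scales by construction. With all 15 CXC ligand genes, an alternative chosen after seeing the data, the share held by Cxcl2 was 96.5% of summed RPKM. That of the ELR genes, with Ppbp and Cxcl15 counted among them, was 97.9%. Leaving out each sample was not run, since both columns are pooled. No paired analysis was possible because the columns carry no replicate number and there is 1 group. Values per sample, the spread between mice and molecular identifiers were not analysed here, and members with under 50 reads (Pf4, Cxcl9 and Cxcl5) have wide intervals.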

Other observations

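The read total and the RPKM of a row together carry a trace of which libraries held its reads, because each library was divided by its own depth. The 6 depths were 1892486, 2070937, 2100580, 2396564, 4343107 and 4752357 reads, and they could not be assigned to the samples. With transcript lengths allowed to be off by 2%, the share of a gene's reads in the 2 deepest libraries can be bounded. It was 52.7 to 77.9% for Cxcl1, 14.7 to 52.6% for Cxcl2, 18.9 to 55.4% for Cxcl3 and 5.37 to 46.3% for Cxcl10. It was 78.0 to 94.8% for Cxcl13, 44.1 to 72.2% for Cxcl12 and 37.9 to 68.0% for Pf4. The lower bound of Cxcl1 and the upper bound of Cxcl2 nearly meet, at 52.7 and 52.6%. The same holds for the lower bound of Cxcl13 and the upper bound of Cxcl1, at 78.0 and 77.9%. So the bounds do not set Cxcl1 apart from Cxcl2 or Cxcl13. They leave out counting error, which is large for Cxcl13 with 73 reads, and lengths other than those in GENCODE would move them.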
